A study of Mus musculus with 4 samples.

Results

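The genes described here are those of cholesterol synthesis and of its control by sterols, 30 in all, chosen by name as the enzymes of the pathway, the regulators of the SREBP transcription factors and the proteins that take up, move or store cholesterol. Each gene was read with probe sets annotated to it alone, and where there were several, with the one of the highest mean over the 4 arrays. Of the 30 genes 28 were measured in this way, out of 18193 genes in the whole series. Acat2 and Soat2 had no probe set of their own in the annotation used and were not analysed here.

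The samples were crypt epithelium from the mouse jejunum, hybridised to 4 Affymetrix arrays, 2 for the Yy1 knockout and 2 for the control, with the replicates labelled as biological. Yy1 is a zinc finger transcription factor that both activates and represses genes. The knockout mice were YY1f/f; Vil-Cre-ERT2, in which tamoxifen activates a Cre recombinase that the Villin promoter drives in the intestinal epithelium, and the treatment lasted 4 days. The strain of both groups was given as C57BL/6J enriched. All 4 samples carry the same treatment text, which can be read as tamoxifen for both groups or for the knockout mice only. The genotype of the controls, including any Cre, the age of the mice and any pooling of tissue are not stated in the labels. An effect of the Cre, or of tamoxifen if the controls had none, and loss of Yy1 cannot be told apart. Nothing states that arrays of 1 group came from separate mice beyond the word biological, and the p-values measure the spread between these arrays alone.

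Cells build cholesterol from acetyl-CoA through mevalonate to farnesyl diphosphate, which either leaves for other isoprenoids or is joined into squalene, closed into lanosterol and trimmed to cholesterol. When sterols in the endoplasmic reticulum are low, Scap carries the SREBP precursors to the Golgi, where they are cut and released to bind the promoters of these enzymes. When sterols are high, the Insig proteins hold Scap back. The epithelium of the small intestine both makes cholesterol and, in its enterocytes, takes it up from the lumen through Npc1l1.

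Yy1 had 140 and 142 intensity units in knockout crypts, against 1051 and 1006 in control crypts (log2 difference -2.74 ± 0.10 SE), so both knockout arrays were low in the targeted gene. Its 4 probe sets were all lower in the knockout, by -4.31 to -1.37, and the probe set with the highest mean on the linear scale had 69.4 and 68.1 in knockout, against 1648 and 1681 in control (-4.31). The position of its probes with respect to the floxed exons was not analysed here. Values throughout are intensities, the linear brightness of a probe set, and a level is compared only within a gene. Log2 differences are knockout minus control on log2(intensity + 16), with the standard error (SE) of limma's moderated fit over all genes. Folds are ratios of group means, and a gene was called at a Benjamini-Hochberg adjusted p under 0.05 over all genes. For further probe sets of a gene, SE and calls come from a separate limma fit over all probe sets except array controls, adjusted on its own. In that separate fit the probe sets used for Idi1, Ggps1 and Lss were not called (limma adjusted p = 0.0530, 0.0568 and 0.0591). All 28 genes stood above the median of 24 control probe sets for Bacillus genes, which was 31.7 to 34 per array, with 146 as the lowest value of any of them. Markers of the mature enterocyte were lower in knockout crypts (17 of 19 called, none higher) and markers of proliferating crypt cells higher (13 of 17 called, none lower). The enterocyte count was 11 with limma's trend and robust options, without control replicate 1 and without control replicate 2. The difference between the 3' and 5' control probe sets of Gapdh, a sign of RNA integrity, was 1.71 and 1.65 (log2) in knockout arrays and 1.44 and 1.40 in control arrays. For beta-actin the same difference was 0.33 and 0.29 in knockout arrays and 0.28 and 0.24 in control arrays. Summed over 19 enterocyte markers the intensity was 50869 and 70637 in knockout arrays, against 107804 and 106485 in control arrays. Over 17 proliferation markers it was 34017 and 32462 in knockout arrays, against 22908 and 23066 in control arrays. Immune markers (2 of 7 called lower, none higher, median -0.17) summed to 8259 and 9121 in knockout arrays, against 8881 and 9239 in control arrays. Most of that sum was Lyz2 (7285 and 7977 in knockout, 7550 and 7845 in control), and the 2 called were Cd3g (-0.69) and Ptprc (-0.42). Markers of mesenchyme and endothelium (1 of 8 called lower, none higher) summed to 1153 and 1019 in knockout arrays, against 1206 and 1270 in control arrays. Tuft markers (3 of 5 called lower, median -0.49) and goblet markers (2 of 7 called lower, median -0.26) had no call higher. Of 5 Paneth markers 1 was called higher, and of 7 enteroendocrine markers 1 was called in each direction. No list had a marker at 0. Of 8 stem cell markers of the crypt base Olfm4 was the one called, lower in the knockout (3662 and 3332 in knockout, 5463 and 5279 in control, log2 -0.62, limma adjusted p = 0.00574), and Lgr5 was dim in all arrays (63.2 and 59.6 in knockout, 69.2 and 66.3 in control). The part of these shifts, and of RNA quality, in the results below was not tested.

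Of 19 measured enzymes of mevalonate, isoprenoid and sterol synthesis 7 were called higher in knockout crypts and none lower. Among the 7 was Ggps1, which lies on the branch to other isoprenoids. The SREBP escort Scap was called higher, and the cholesterol uptake gene Npc1l1 was called lower. Of the 28 measured genes 8 were called higher, against 13.4% of all genes, and 1 was called lower, against 11% of all genes. The 8 were Pmvk, Idi1, Fdps, Ggps1, Lss, Cyp51, Hsd17b7 and Scap, which is 28.6% of the measured genes, and the 1 lower gene was Npc1l1. The median log2 difference was 0.17, against 0.01 over all genes. Both knockout arrays lay above both controls in 17 genes and below them in 7. Over all genes 32.7% lay above and 29.3% below, and 62% did not overlap in one direction or the other. Of the 9 called genes 5 differed by at least 1.5-fold on the log2 scale of the test, and the other 4, Idi1, Ggps1, Lss and Cyp51, lay between 1.26-fold and 1.39-fold. The number of calls depended on single arrays, with 4 genes called higher without knockout replicate 1 or without control replicate 1, and 5 without knockout replicate 2 or without control replicate 2. Npc1l1 was called in each case. The measured genes were bright, with a median brightness percentile of 82.2 among all genes, and bright genes were called more often. Of 12342 genes with a mean above 100, tested alone, 2450 were called higher and 1903 lower, both larger shares than over all genes. Of the 28 measured genes 10 were called higher in that setting and 1 lower. The 12342 genes reach down to a mean of 100, while no value of the 28 was under 146, so the sets are not matched in brightness. In bulk tissue, fewer cells of a type and less RNA per cell cannot be told apart, and this holds for every difference that follows.

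**Figure D1:**
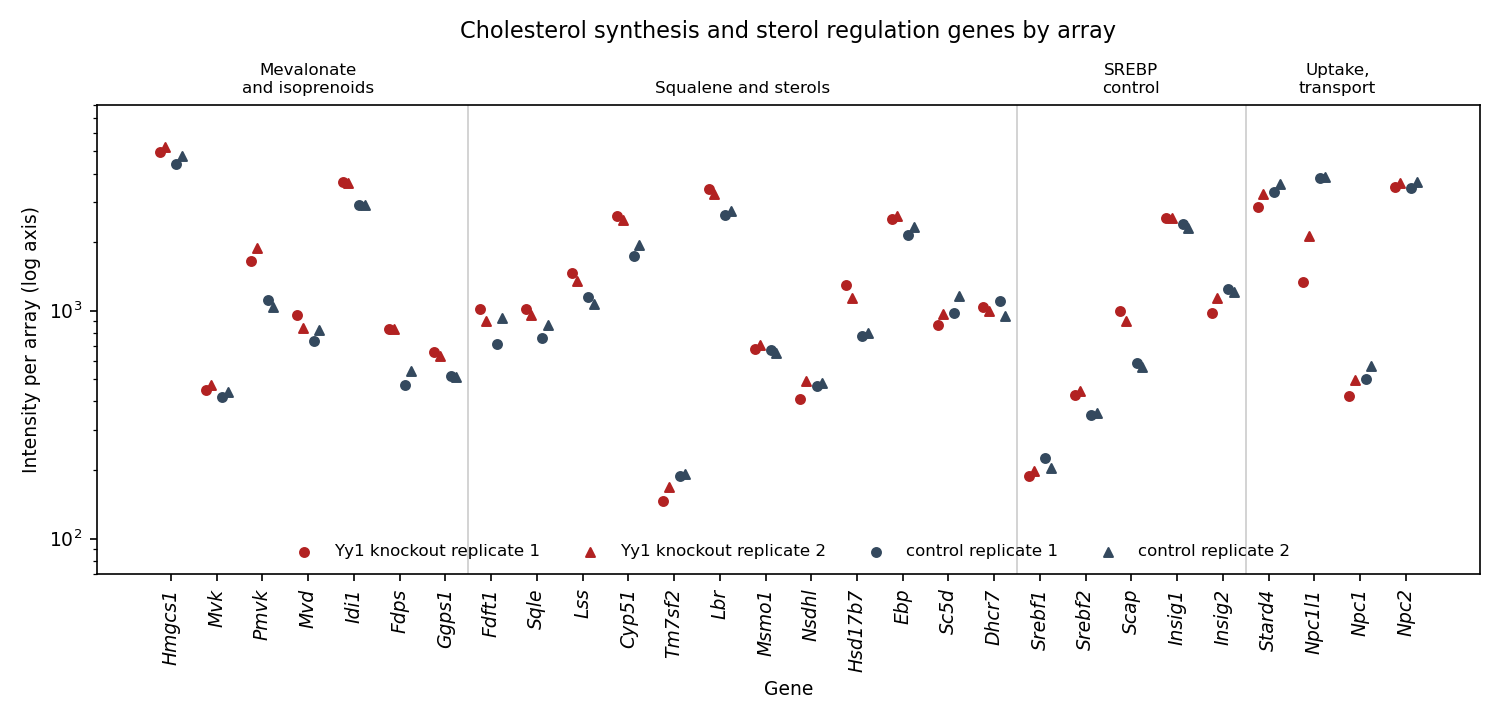
Intensity of the 28 measured genes in each array, on a log axis, ordered by role, with Yy1 knockout arrays in red and control arrays in dark blue (circles replicate 1, triangles replicate 2). Pmvk, Fdps, Hsd17b7 and Scap show both knockout arrays clear above the controls, and Npc1l1 shows 1336 and 2120 in knockout below 3833 and 3864 in control.

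Genes of the SREBP pathway are known for promoters that join a sterol regulatory element with boxes for NF-Y and Sp1. Promoter windows of 300 bases, from 250 before to 50 after the start, were matched by symbol to RefSeq (GRCm38.p6) for 24 of the 30 genes. Npc1, Stard4, Fdps, Fdft1, Sqle and Soat2 had no entry. The 24 genes had 32 windows, and a gene was counted when any of its windows held the motif. Shares of genes are thus alike in kind to those of array genes, but not to the shares of windows. Searched on both strands, the NF-Y box CCAAT was in a window of 22 of these 24 genes (91.7%), against 42% of 14452 genes on the array with a window and 37.4% of all 32851 windows. The Sp1 box GGGCGG was in 21 of 24 (87.5%), against 57.3% of array genes and 35.7% of all windows. The E-box CACGTG was in 5 of 24 (20.8%), against 10.2% of array genes and 7.15% of all windows. The strict sterol element TCACNCCAC was in 1 of 24, against 1.46% of array genes and 1.24% of all windows. The motif AANATGGC, after the sequence that Yy1 binds, was in 3 of 24 (12.5%), against 8.05% of array genes and 6.05% of all windows. The 3 were Insig2, Srebf2 and Npc2, and none of the 7 called-higher genes with a window held it. CCAAT was in 6 of those 7. Scap was the one without it. In Pmvk, CCAAT was in the window chr3:89454291-89454590 and not in the window of its other start, chr3:89459321-89459620. No motif searched overlapped another in the windows printed.

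The 4 windows below show the gene with the strict sterol element (Hmgcs1), a called-higher enzyme with several NF-Y boxes and an E-box (Hsd17b7), the called-higher regulator without an NF-Y box (Scap) and the called-lower gene (Npc1l1). Each reads 5′ to 3′ on the strand of the gene, with sterol elements, NF-Y boxes and E-boxes of either strand in capitals.
Hmgcs1, chr13:119690101-119690400, plus strand: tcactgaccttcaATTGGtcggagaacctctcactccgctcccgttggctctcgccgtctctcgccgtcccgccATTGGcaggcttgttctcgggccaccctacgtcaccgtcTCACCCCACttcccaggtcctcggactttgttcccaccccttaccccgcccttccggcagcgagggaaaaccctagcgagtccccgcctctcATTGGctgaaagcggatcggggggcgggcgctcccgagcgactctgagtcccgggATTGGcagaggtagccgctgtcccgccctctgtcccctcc
Hsd17b7, chr1:169969156-169969455, minus strand: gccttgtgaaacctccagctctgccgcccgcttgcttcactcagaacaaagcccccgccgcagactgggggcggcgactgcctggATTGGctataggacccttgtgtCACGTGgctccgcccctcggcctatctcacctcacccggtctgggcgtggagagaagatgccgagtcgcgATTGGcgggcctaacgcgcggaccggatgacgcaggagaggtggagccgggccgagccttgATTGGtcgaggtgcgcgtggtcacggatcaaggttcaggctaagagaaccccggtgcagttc
Scap, chr9:110333038-110333337, plus strand: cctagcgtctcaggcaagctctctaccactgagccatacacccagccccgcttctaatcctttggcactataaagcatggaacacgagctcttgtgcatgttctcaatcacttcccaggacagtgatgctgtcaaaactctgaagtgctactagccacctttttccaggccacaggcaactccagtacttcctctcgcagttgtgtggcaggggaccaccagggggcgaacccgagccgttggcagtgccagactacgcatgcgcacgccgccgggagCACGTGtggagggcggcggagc
Npc1l1, chr11:6230196-6230495, minus strand: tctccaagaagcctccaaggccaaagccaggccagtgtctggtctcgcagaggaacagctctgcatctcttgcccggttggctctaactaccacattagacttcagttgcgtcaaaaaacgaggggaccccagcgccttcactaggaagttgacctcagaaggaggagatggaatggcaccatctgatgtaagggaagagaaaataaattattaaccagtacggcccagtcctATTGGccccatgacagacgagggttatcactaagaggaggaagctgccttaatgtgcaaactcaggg
In Hmgcs1 the sterol element began at offset -137 from the start base and the 4 NF-Y boxes at -237, -176, -45 and 10. In Hsd17b7 the NF-Y boxes began at -165, -73 and -12 and the E-box at -143. The E-box of Scap began at 28 in the window printed and at -40 in the window of another Scap start, not printed. The NF-Y box of Npc1l1 began at -17. A match describes letters in these windows and shows neither binding nor its absence.

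The early, mevalonate part, counted here with Ggps1 of the isoprenoid branch, had 4 of its 7 measured genes called higher and none lower. Over all genes the shares were 13.4% and 11%. In all 7 both knockout arrays exceeded both controls, as in 32.7% of all genes. The median log2 difference of this part was 0.32. Pmvk, phosphomevalonate kinase, had 1656 and 1889 in knockout crypts, against 1114 and 1041 in control crypts. The groups were well apart, 1.64-fold higher in the knockout (log2 0.71 ± 0.11, limma adjusted p = 0.00475), and Pmvk stayed called in all 14 alternative settings. Fdps, which makes farnesyl diphosphate at the branch of the pathway, had 831 and 835 in knockout crypts, against 471 and 542 in control crypts. Its knockout arrays were nearly equal and its fold was also 1.64 (0.70 ± 0.11, limma adjusted p = 0.00454). A second, dim Fdps probe set had 53.6 and 43.5 in knockout, against 51.0 and 46.2 in control, and showed no such difference.

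Idi1, the isomerase of isopentenyl diphosphate, had 3661 and 3645 in knockout crypts, against 2919 and 2900 in control crypts. Replicates differed far less than groups, and the fold was 1.26 (log2 0.33 ± 0.09, limma adjusted p = 0.0427). Its second probe set gave 0.45 ± 0.10. Ggps1, which makes geranylgeranyl diphosphate for protein prenylation, had 658 and 635 in knockout crypts, against 516 and 510 in control crypts. Its 4 probe sets all lay higher in the knockout, by 0.31 to 0.42 (log2), and the one used gave 1.26-fold (0.32 ± 0.09, limma adjusted p = 0.0459). Both genes sat close to the threshold, and neither kept its call with 1 array left out, in turn for all 4 arrays. Idi1 lost the call in 5 of the 14 alternative settings, also with a pseudocount of 1 (limma adjusted p = 0.0667). Ggps1 lost it in 7 of the 14. These included a pseudocount of 1 (limma adjusted p = 0.0669), quantile normalization (0.0612) and limma's trend and robust options (0.0574).

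The other 3 genes of this part were not called. Hmgcs1, HMG-CoA synthase and the gene with the strict sterol element, had 4948 and 5214 in knockout crypts, against 4413 and 4771 in control crypts. Its log2 difference was 0.15, with a 95% interval of -0.09 to 0.38, and its 5 probe sets lay between 0.08 and 0.23. Mvk, mevalonate kinase, had 448 and 470 in knockout, against 417 and 441 in control (0.09, interval -0.13 to 0.32). Mvd, the decarboxylase after Pmvk, had 961 and 842 in knockout, against 737 and 825 in control (0.20, interval -0.07 to 0.47). For these genes the values lean upward in the knockout but by no more than the test resolves. The upper limits lie below the estimates of Pmvk and Fdps, but that of Mvd lies inside their intervals, which both begin at 0.45. Differences between genes were not tested.

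The later part, from squalene to cholesterol, was mixed. Of 12 measured genes 3 were called higher and none lower, against 13.4% and 11% of all genes, with a median log2 difference of 0.21. Hsd17b7, the keto-sterol reductase of the demethylation steps, had 1296 and 1134 in knockout crypts, against 778 and 800 in control crypts. Both knockout arrays were well above the controls at 1.54-fold (0.61 ± 0.11, limma adjusted p = 0.00733). Its probe sets 2 and 3 by brightness gave 0.54 ± 0.11 and 0.52 ± 0.10, and a further dim one, at 41.8 and 35.9 in knockout against 29.8 and 33.1 in control, gave 0.21 ± 0.11 and no call.

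Cyp51, the lanosterol demethylase, had 2595 and 2505 in knockout crypts, against 1745 and 1933 in control crypts. The groups did not overlap, and the fold was 1.39 (log2 0.47 ± 0.10, limma adjusted p = 0.0160), with 0.74 ± 0.10 and 0.27 ± 0.10 from its other probe sets. Its adjusted p was 0.0632 without knockout replicate 1 and 0.111 without control replicate 1. Lss, lanosterol synthase, had 1471 and 1349 in knockout crypts, against 1144 and 1071 in control crypts. It was the last gene inside the threshold at 1.27-fold (0.34 ± 0.10, limma adjusted p = 0.0492), and its adjusted p was 0.0538 to 0.242 with any 1 array left out. Its other probe sets gave 0.31 ± 0.10 and, for a dim one, 0.06 ± 0.15. The call was also lost with quantile normalization (0.0536), with arrays scaled to one median (0.0554), with the mean of all probe sets (0.151) and with a pseudocount of 1 (0.0737).

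Lbr and Tm7sf2 both encode a reductase for the same double bond that Cyp51 leaves behind, and Lbr also anchors heterochromatin to the nuclear envelope. Lbr had 3435 and 3261 in knockout crypts, against 2628 and 2751 in control crypts, and lay just outside the threshold (0.31, interval 0.09 to 0.54, limma adjusted p = 0.0554). Lbr was called in 5 of the 14 alternative settings. Tm7sf2 had 146 and 168 in knockout crypts, against 188 and 192 in control crypts (-0.26, limma adjusted p = 0.135). Knockout arrays were thus above the controls in Lbr and below them in Tm7sf2, and neither difference passed. Whether the 2 genes differ from each other in their response was not tested.

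The remaining 7 genes of the sterol steps were not called. Sqle, squalene epoxidase, had 1013 and 959 in knockout, against 758 and 864 in control (0.28, interval 0.03 to 0.53, limma adjusted p = 0.109). Fdft1, squalene synthase, had 1015 and 903 in knockout, against 716 and 931 in control (0.22, interval -0.11 to 0.56), and its groups overlapped. Ebp, the sterol isomerase, had 2527 and 2603 in knockout, against 2158 and 2328 in control (0.19, interval -0.04 to 0.42). These 3 genes had higher means in the knockout. Msmo1 (0.07, interval -0.16 to 0.29) and Nsdhl (-0.08, interval -0.35 to 0.20) act with Hsd17b7 on the methyl groups of the ring. Sc5d, the desaturase before the end, had 863 and 963 in knockout, against 973 and 1158 in control (-0.22, interval -0.50 to 0.07). Dhcr7, the reductase that yields cholesterol, had 1037 and 995 in knockout, against 1098 and 947 in control, with a difference of -0.01 and an interval of -0.27 to 0.25. For Dhcr7 a change of the size estimated for Hsd17b7 is outside the interval, and a difference between these genes was not tested.

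**Figure D2:**
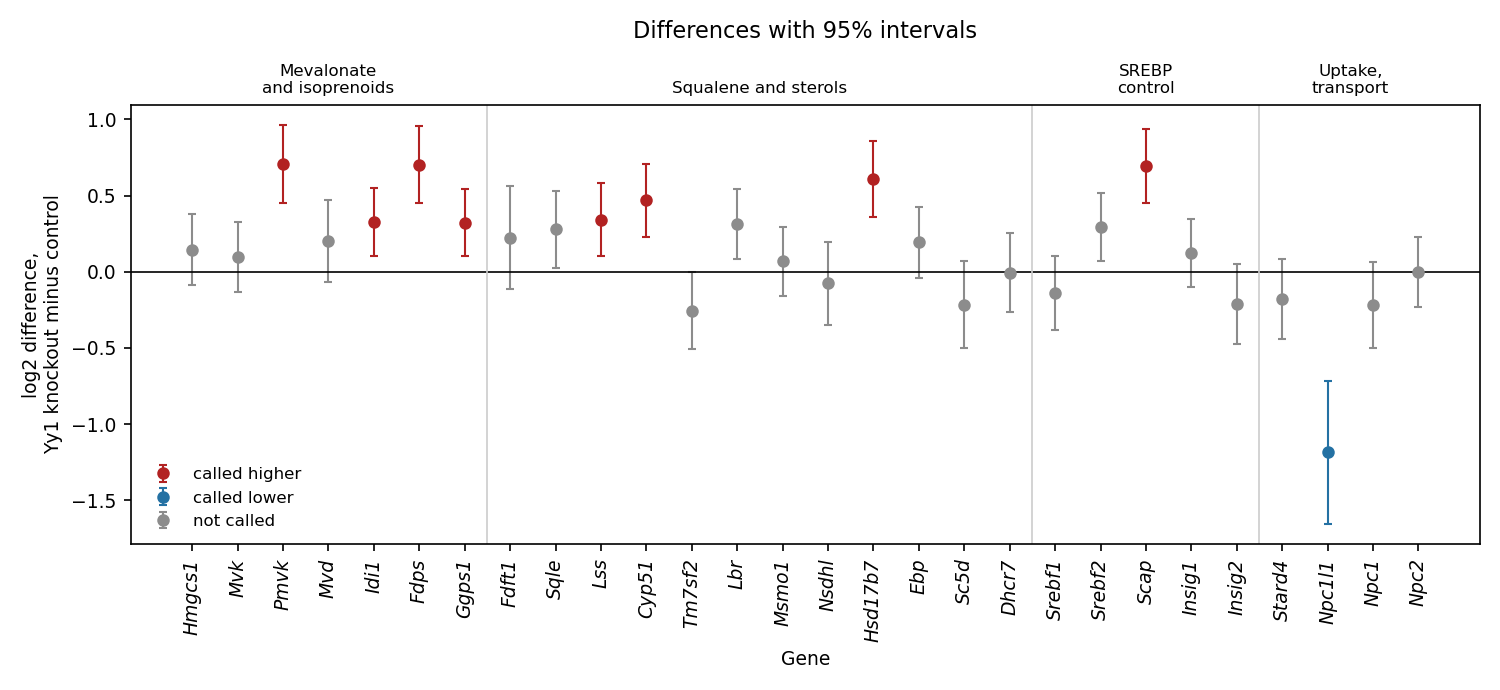
Log2 difference, Yy1 knockout minus control, for each measured gene (point) with its 95% interval from the moderated fit (bar), with 2 arrays per group, red for called higher, blue for called lower and grey for not called. Pmvk (0.71), Fdps (0.70), Scap (0.69) and Hsd17b7 (0.61) lead, and Npc1l1 (-1.19) is the only gene called lower.

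Of the 5 regulators Scap alone was called, against 24.4% of all genes called in either direction. Scap, the escort of the SREBP precursors, had 997 and 902 in knockout crypts, against 592 and 568 in control crypts. The groups were clearly apart at 1.64-fold (log2 0.69 ± 0.10, limma adjusted p = 0.00399). A second, dim probe set did not show it, with 77.4 and 78.4 in knockout, against 86.1 and 75.7 in control.

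Srebf2, the SREBP that mainly drives cholesterol synthesis, had 426 and 444 in knockout crypts, against 347 and 356 in control crypts. Its groups did not overlap, but it lay outside the threshold (0.30, interval 0.07 to 0.52, limma adjusted p = 0.0637), and it was called in 2 of the 14 alternative settings. The second probe set of Srebf2 gave 0.32 ± 0.12. Srebf1, the SREBP more tied to fatty acids, had 189 and 198 in knockout crypts, against 226 and 203 in control crypts (-0.14, interval -0.38 to 0.10). Insig1, itself a known SREBP target, had 2557 and 2560 in knockout crypts, against 2403 and 2298 in control crypts (0.12, interval -0.10 to 0.35). Insig2, which also retains Scap, had 976 and 1139 in knockout crypts, against 1242 and 1205 in control crypts (-0.21, interval -0.47 to 0.05). All 3 probe sets of Insig2 were lower in the knockout, by -0.29 to -0.21, and none of them was called. For Insig1 the interval ends below the estimate of Scap, and a difference between these genes was not tested.

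Among the uptake and transport genes Npc1l1 fell and the other 3 measured were not called. Npc1l1, the brush border protein that takes up dietary and biliary cholesterol, had 1336 and 2120 in knockout crypts, against 3833 and 3864 in control crypts. Both knockout arrays were low, at a mean of 0.449 times the control level (log2 -1.19 ± 0.20, limma adjusted p = 0.00635), and replicate 1 was lower than replicate 2. The difference was -0.85 without knockout replicate 1 and -1.52 without knockout replicate 2. Npc1l1 was called in all 14 alternative settings and had 1 probe set.

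Npc1 and Npc2 hand cholesterol out of lysosomes. Npc1 had 423 and 496 in knockout crypts, against 503 and 571 in control crypts (-0.22, interval -0.50 to 0.06). Npc2 had 3493 and 3631 in knockout crypts, against 3457 and 3667 in control crypts (0.00, interval -0.23 to 0.23). Stard4, a carrier of sterol through the cytosol, had 2842 and 3267 in knockout crypts, against 3322 and 3593 in control crypts (-0.18, interval -0.44 to 0.08). The Npc1 and Stard4 arrays of the knockout lay below the controls and those of Npc2 between them, within what 2 arrays a group can resolve.

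The 2 knockout arrays had like means over the synthesis genes and unlike means over the uptake and transport genes. Relative to the mean of the controls, the mean log2 level of the 7 mevalonate genes was 0.35 in knockout replicate 1 and 0.36 in knockout replicate 2, and that of the 12 sterol genes was 0.16 in both. Single synthesis genes differed between the knockout arrays in either direction: Pmvk was higher in replicate 2 and Hsd17b7 in replicate 1. Replicate 1 was the farther from the controls in 12 of 19, close to the share over all genes (11116 of 18193). The 4 uptake and transport genes stood at -0.54 and -0.25. Npc1l1, at -1.52 and -0.85, had the largest part in that mean. Npc1, Npc2 and Stard4 were not called, and each was also lower in replicate 1 than in replicate 2. Enterocyte markers stood at -1.78 and -1.15, with replicate 1 the lower one in 19 of 19 markers, and proliferation markers at 0.72 and 0.61. Npc1l1 thus differed between the knockout arrays in the same order as the enterocyte markers did. The part of cell makeup in it was not tested.

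**Figure D3:**
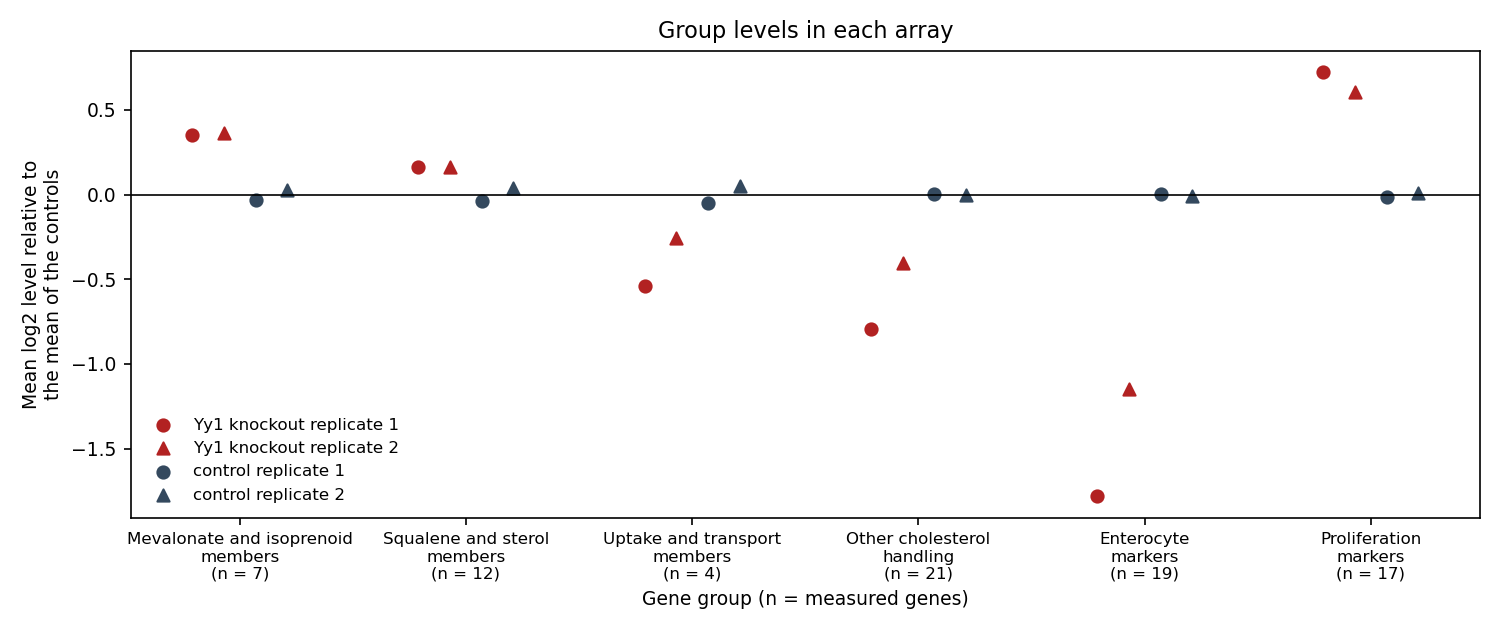
Mean log2 level of 6 gene groups in each array, relative to the mean of the 2 controls, with Yy1 knockout arrays in red, control arrays in dark blue, circles for replicate 1 and triangles for replicate 2. The means of the knockout arrays lie close together in the synthesis groups (0.35 and 0.36 for the mevalonate genes) and separate in uptake and transport (-0.54 and -0.25), other cholesterol handling (-0.79 and -0.40) and enterocyte markers (-1.78 and -1.15). The uptake and transport mean covers 4 genes, of which Npc1l1 had the largest difference.

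Different probe sets of a gene mostly gave the same direction. Of the 28 genes 11 had 1 probe set and 17 had several. Among the 33 further probe sets 26 had the sign of the one used, and among the 28 of them with a group mean above 100 units 24 did. All 10 such bright further probe sets of called genes had the sign of the called gene. Of their dim further probe sets, those of Fdps (-0.0041) and Scap (-0.043) had the other sign and that of Hsd17b7 (0.21) the same sign.

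Related genes outside the 28 were taken from lists by role. Of 9 further genes of sterol synthesis and uptake only Tmem97, a sterol-responsive membrane protein, and Erg28, a scaffold of the demethylation enzymes, were measured, and the others were not analysed here. Tmem97 had 711 and 753 in knockout, against 581 and 589 in control (0.32 ± 0.10, limma adjusted p = 0.0523). Erg28 had 1550 and 1513 in knockout, against 1247 and 1283 in control (0.27 ± 0.09, limma adjusted p = 0.0803). Neither was called, although both knockout arrays exceeded the controls in each.

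Of 16 measured genes that use isoprenoids 5 were called higher and 2 lower, against 13.4% and 11% of all genes, with a median of 0.15. The count higher was 3 without knockout replicate 1, 2 without control replicate 1 and 1 without control replicate 2. Rabggtb, a subunit of the enzyme that prenylates Rab proteins, rose by 0.62 ± 0.10 (limma adjusted p = 0.00577). Dolk, dolichol kinase, had 143 and 149 in knockout, against 325 and 342 in control, and fell by 1.11 on the log2 scale (limma adjusted p = 0.000853). Fnta, the shared subunit of the farnesyl and geranylgeranyl transferases, had 1574 and 1559 in knockout, against 2489 and 2460 in control (-0.65 ± 0.09). The lower calls were a share of the list (12.5%) close to that of all genes.

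Of 18 measured fatty acid genes known as SREBP targets, 5 were called higher and 2 lower, against 13.4% and 11% of all genes, with a median of 0.07. The count higher was 3 with the dimmest probe sets, 2 without knockout replicate 1 or without control replicate 1, and 1 without control replicate 2. The count lower was 1 without either control replicate. Elovl5, which lengthens polyunsaturated fatty acids, had 2962 and 2872 in knockout, against 1673 and 1883 in control (0.71 ± 0.10, limma adjusted p = 0.00396). Gpam, the first acyltransferase of glycerolipid synthesis, rose by 0.72 ± 0.14. Me1, malic enzyme, had 618 and 565 in knockout, against 905 and 1075 in control (-0.72 ± 0.12), lower in both knockout arrays.

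Of 11 other genes that control SREBPs or sterol sensing, 5 were called lower and 1 higher, against 11% and 13.4% of all genes, with a median of -0.10. The count lower was 3 with a pseudocount of 1 or with the dimmest probe sets, and 1 to 3 with any 1 array left out: 2 without knockout replicate 1, 3 without knockout replicate 2, 1 without control replicate 1 and 3 without control replicate 2. The protease that makes the first cut in SREBPs, Mbtps1, was the one higher, at 1044 and 966 in knockout, against 733 and 758 in control (0.42 ± 0.10, limma adjusted p = 0.0209). No gene of this list was called higher with the mean of all probe sets, with the dimmest probe sets, or without knockout replicate 1, control replicate 1 or control replicate 2. Erlin2, which with Erlin1 restrains SREBP activation and aids sterol-driven protein degradation, had 1000 and 1052 in knockout, against 1533 and 1532 in control (-0.57 ± 0.10, limma adjusted p = 0.00616). Nr1h3, the oxysterol receptor LXR alpha, had 317 and 399 in knockout, against 586 and 570 in control (-0.68 ± 0.13). Mylip, the ligase that degrades the LDL receptor, had 62.6 and 63.7 in knockout, against 134 and 95.3 in control (-0.71 ± 0.15) and was dim in the knockout, against a background of 31.7 to 34. Rnf139 and Erlin1 were the other genes called lower, and Mbtps1, Rnf139 and Erlin1 were named after their values were seen. Syvn1, Paqr3, Aup1, Mbtps2 and Rnf145 were not called.

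Of 21 other measured genes of cholesterol handling 7 were called lower and none higher, against 11% and 13.4% of all genes, with a median of -0.39. The count lower was 11 without knockout replicate 2. Cyp27a1, the sterol hydroxylase of mitochondria, had 122 and 198 in knockout, against 725 and 623 in control (-2.00 ± 0.20, limma adjusted p = 0.00122). Lrp1, an endocytic receptor, had 143 and 183 in knockout, against 421 and 423 in control (-1.30 ± 0.13). Abca1, the exporter of cholesterol to apolipoprotein, had 151 and 275 in knockout, against 822 and 679 in control (-1.79 ± 0.24). Abcg5 and Abcg8, which together form the transporter that returns sterols to the lumen, were also called lower, with Gramd1b and Gramd1c, which move cholesterol from the plasma membrane inward. These 4 were named after their values were seen. Knockout replicate 1 was farther from the controls than replicate 2 in 16 of the 21 genes, against 11116 of 18193 over all genes, and the enterocyte markers shifted in the same arrays by the amounts given above.

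**Figure D4:**
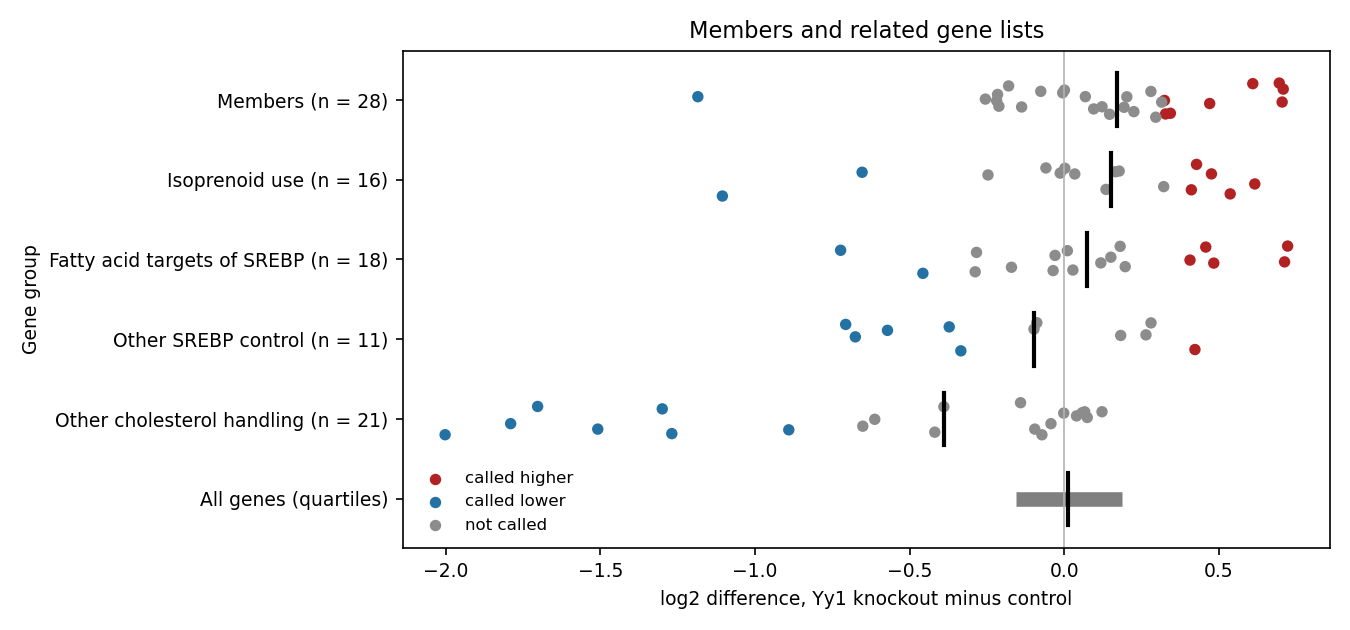
Log2 difference, Yy1 knockout minus control, for each measured gene (points, spread vertically only for sight) in the 28 sterol genes and 4 related lists, with black bars at the medians and, for all 18193 genes, a grey bar from the lower to the upper quartile (-0.16 to 0.19). The 28 sterol genes center at 0.17 and other cholesterol handling genes at -0.39, and red and blue mark genes called higher and lower.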

How the data were processed

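The authors deposited 1 linear intensity per probe set and array, from biotin-labelled total RNA on Affymetrix arrays per the labels' protocols. How probe sets were summarised, background-corrected and normalized is not stated in the labels. Array medians were 141, 141, 139 and 143 in knockout replicates 1 and 2 and control replicates 1 and 2, so no scaling was added. Precision is limited by having 2 arrays a group.

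Of 45101 probe sets 34945 had 1 gene in GEO's platform annotation, 932 had several, 9160 had none listed and 64 were controls. Symbols were updated through a RefSeq table of GRCm38.p6, used for names (18032 of 18193 genes matched). Each gene was read from its brightest probe set, by the mean of log2(intensity + 16). That scale was chosen after the linear mean had also been run, because its counts over all genes equal those of an earlier account of these data, and 52 genes, none of the 28 but Yy1 among them, would take another probe set by the linear mean. Knockout was compared with control by limma 3.58.1 in R 4.3.3 (lmFit, eBayes, no block, no filter, Benjamini-Hochberg over 18193 genes, 7.05 degrees of freedom). The genes and lists were chosen with earlier results of these data known. The naming rule was per-array values for every called gene and the 5 regulators, and from each related list the 3 called genes with the smallest p. Tested on simulated data of 18193 genes, 200 of them changed, this fit recovered 26.6% of genes changed 1.5-fold and 90.4% of those changed 2-fold. In the real data 4439 genes were called, which sets a looser Benjamini-Hochberg threshold than in the simulation. The simulated rates therefore do not carry over to the real data. The control probe sets for Bacillus genes served as a background measure. Alternatives covered pseudocounts, normalization, filter, prior, block, probe set choice and leaving out each array.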

Additional observations from a re-analysis of the deposited data

How the results depend on the processing

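With 14 alternative settings, 351 of 392 pairs of gene and setting kept the direction and side of the threshold, 24 lost the call, 7 gained it and 10 turned sign. Pmvk and Npc1l1 were called in every setting run. The number of sterol genes called higher was 8 as reported, 5 with a pseudocount of 1 and 4 when each gene was read from its dimmest probe set, and 4 to 5 with 1 array left out. It was 10 with a pseudocount of 64 and 10 with genes of a mean above 100, where Lbr and Srebf2 were called too. The number called lower was 1 in all of them. The median log2 difference of these genes was 0.17 as reported, 0.067 with the dimmest probe sets and 0.11 to 0.22 with 1 array left out. Over all genes 1157 to 2307 were called higher and 1040 to 2059 lower with 1 array left out, against 2445 and 1994. With the dimmest probe sets the log2 difference turned to -0.0041 for Fdps, -0.043 for Scap, -0.028 for Fdft1 and -0.066 for Msmo1. Other sign changes were in genes not called in any setting. Npc2 was -0.0021 with arrays scaled to one median and -0.042 to 0.043 with 1 array left out, Dhcr7 was -0.11 to 0.10 and Nsdhl -0.21 to 0.053. The further probe sets of Fdps and Scap are dim, and the cause of these changes was not tested. Replicate numbers are shared between groups. The deviations of same-numbered knockout and control arrays from their group means had a correlation of 0.097 over genes. With so few arrays a group, this value cannot show whether the arrays were paired. With the replicate block 2662 of all genes were called higher and 2219 lower, against 2445 and 1994 without it. Of the sterol genes 8 were called higher and 1 lower with the block. Choosing the probe set by its linear mean, a comparison made after seeing the data, gave the same counts of 8 and 1.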
